A study of Mus musculus with 4 samples.

Results

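The genes of glycolysis and of the hypoxia response were followed as 38 listed genes, out of 31055 features in the files, through 4 droplet single-cell RNA libraries of mouse muscle stem cells. A gene counted as measured with at least 5 CPM in any library (CPM, a gene's molecule count scaled to the library's total), which 36 of the 38 reached; among all features 10323 did. The isoforms Aldoc and Eno2, best known from brain, stayed at 0.326 CPM or less and at 1.03 CPM or less and are not described further. The members were taken by symbol from a list drawn up with earlier results of these data known.

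Muscle stem cells lie beside muscle fibres, hold the transcription factor Pax7 and rebuild fibres after injury. All 4 groups came from Tg:Pax7-nGFP mice aged 2 to 4 months, whose nuclear green fluorescence marks Pax7 expression and served to sort the cells. The groups were quiescent EOM (extraocular muscle, which moves the eye), quiescent TA (tibialis anterior, a leg muscle), activated EOM and activated TA. Quiescent cells went to the droplet platform directly after sorting. Activated cells were first kept 4 days in culture, on Matrigel in growth medium at 3% oxygen. Each group was 1 library, so no test between groups was possible, and the number of mice behind a library is not given in the sources used here. Culture, time, oxygen and the handling of fresh tissue therefore cannot be told apart between quiescent and activated cells.

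After filtering, 3596, 2904, 5566 and 4284 cells remained in the order of the groups above, with median depths of 4664 to 23364.5 counted molecules (UMIs) per cell. Pax7 stood at 287, 387, 75.4 and 55.1 CPM and Myog, which drives terminal differentiation, at 4.86, 8.17, 1483 and 1552 CPM, both in the same order. Any pair of libraries shared 5 to 12 cell barcodes. Quiescent TA stood apart in quality: 40.5% of its barcodes had more than 10% mitochondrial UMIs, against 11.7% to 24.7% in the others. Summed markers of immune cells reached 25.4 CPM at most, with Ptprc at 0 in every library, and those of endothelium 9.97 to 47.6 CPM. The lists for fibroblasts and for mural or smooth muscle cells, some of whose genes muscle stem cells also express, summed to 1226, 1369, 201 and 140 CPM and to 1560, 1333, 2992 and 2246 CPM in the order of the groups; the part of such cells in the results was not tested. All CPM are sums of UMIs over a library's cells divided by its total. A UMI stands for 1 molecule whatever its length, so levels and shares of different genes are set side by side as counted. Whether different genes were captured and assigned equally well was not tested. Ratios carry exact 95% intervals for a ratio of Poisson rates, which cover counting error only and not the spread between animals.

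Glycolysis splits glucose into pyruvate in the cytosol; its upper part spends energy to make a pair of 3-carbon sugars, and its lower part turns these into pyruvate and gains energy. Lactate dehydrogenase and the monocarboxylate transporters then turn pyruvate into lactate and move it out of the cell. In the counts below, Aldoa and Tpi1, whose enzymes make the pair of 3-carbon sugars, are grouped with lower glycolysis. When oxygen is low, prolyl hydroxylases (Egln genes) no longer mark the HIF factors for destruction, and HIF binds short motifs near genes of glucose use, mitochondrial turnover and blood vessel growth. Quiescent muscle stem cells are known for low glycolysis, which is taken up on activation.

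The core letters that HIF binds, ACGTG or GCGTG on either strand (so also CACGT and CACGC), were searched in promoter windows of 300 bases from RefSeq (build GRCm38.p6, 250 before to 50 after a transcription start). Such windows were found for 34 of the 38 members, 52 windows in all since some genes have several starts. The letters occurred in 39 of the 52 windows (75%) and in 43.8% of all 32851 windows, and 3 or more matches lay in 25% against 8.93%. The palindrome CACGTG, which other factors of the Myc type also bind, counts as a match on each strand and lay in 11.5% against 7.15%. The list was drawn up from genes known for glycolysis and hypoxia, so these shares describe it and test nothing. Below are windows of 3 genes that stood higher in activated cells (Ldha, the lactate dehydrogenase of muscle; Pgk1, phosphoglycerate kinase; Bnip3, a receptor for removal of mitochondria) and of 1 that stood lower (Hk2, the inducible hexokinase). They are shown because the same letters, in capitals, are present on both sides of the main split in the data. The window of Ldha is chr7:46845554-46845853 on the plus strand and holds 7 matches. That of Pgk1 is chrX:106186850-106187149, plus strand, with 2 matches, that of Bnip3 chr7:138909457-138909756, minus strand, with 5, and that of Hk2 chr6:82774405-82774704, minus strand, with 2.
Ldha: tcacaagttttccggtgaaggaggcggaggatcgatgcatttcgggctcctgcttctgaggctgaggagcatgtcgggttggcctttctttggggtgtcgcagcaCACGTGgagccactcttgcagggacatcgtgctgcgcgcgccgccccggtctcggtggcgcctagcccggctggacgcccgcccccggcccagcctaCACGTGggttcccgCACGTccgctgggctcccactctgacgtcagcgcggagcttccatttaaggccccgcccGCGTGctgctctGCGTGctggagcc
Pgk1: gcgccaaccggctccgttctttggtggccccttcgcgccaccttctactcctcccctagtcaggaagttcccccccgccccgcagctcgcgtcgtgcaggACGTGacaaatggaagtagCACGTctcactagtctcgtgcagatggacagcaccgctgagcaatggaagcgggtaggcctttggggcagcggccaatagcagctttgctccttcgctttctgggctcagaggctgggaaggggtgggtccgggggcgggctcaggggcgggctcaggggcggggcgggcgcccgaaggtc
Bnip3: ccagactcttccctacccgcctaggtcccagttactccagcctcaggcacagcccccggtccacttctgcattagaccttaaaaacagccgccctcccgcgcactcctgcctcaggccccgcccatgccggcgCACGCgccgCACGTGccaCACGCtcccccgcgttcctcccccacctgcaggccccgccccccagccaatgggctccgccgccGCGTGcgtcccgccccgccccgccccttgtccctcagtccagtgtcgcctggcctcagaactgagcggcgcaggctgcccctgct
Hk2: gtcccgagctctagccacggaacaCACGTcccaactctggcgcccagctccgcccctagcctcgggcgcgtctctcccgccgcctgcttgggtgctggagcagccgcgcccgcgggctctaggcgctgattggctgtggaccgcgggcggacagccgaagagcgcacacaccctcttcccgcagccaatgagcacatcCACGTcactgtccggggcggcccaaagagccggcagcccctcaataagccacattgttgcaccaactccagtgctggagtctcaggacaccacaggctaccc

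**Figure D1:**
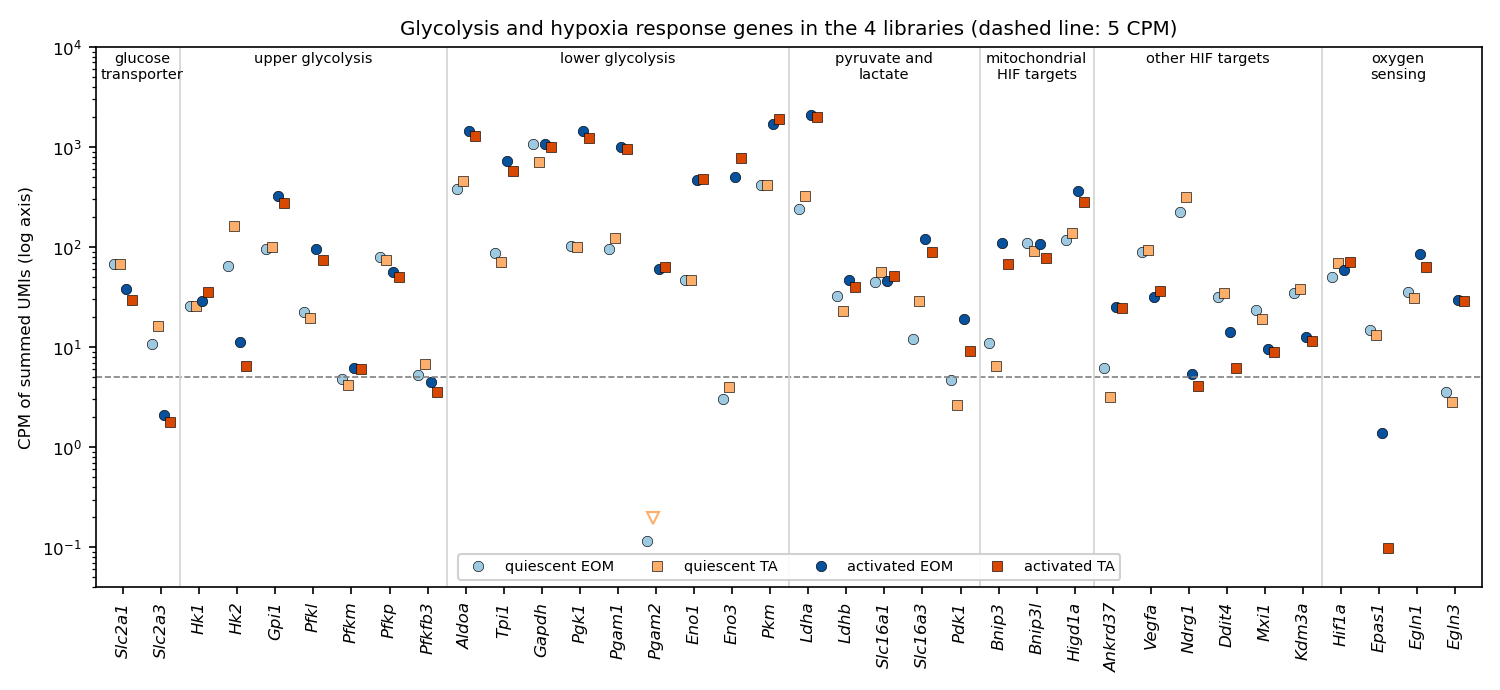
CPM of summed UMIs (log axis) of the 36 measured members in each of the 4 libraries, grouped by role; circles are EOM, squares TA, pale colours quiescent and dark colours activated cells, and the dashed line marks 5 CPM. The open triangle for Pgam2 in quiescent TA stands for no UMI and is drawn at the level of 3 counts (0.196 CPM); dark points lie above pale ones across most of lower glycolysis and below them for Hk2, Ndrg1 and Epas1.

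Activated cells held far more transcript of lower glycolysis and of lactate production than quiescent cells in both muscles. Glucose transporters and hexokinase 2 were lower, as were 5 of 6 HIF targets outside metabolism, mitochondria and oxygen sensing. At least 2-fold higher in activated than in quiescent EOM were 18 of 36 members, where 25.3% of all 10067 genes measured in that comparison were, and 8 were at least 2-fold lower, against 25.3% of all genes. In TA, 18 of 36 were higher, with 29.1% of 9863 genes, and 9 lower, with 24.8% of genes. The 18 higher members were the same genes in both muscles. The share of higher members lay above that of all genes, and the share of lower members was close to it. The median log2 ratio of the members (with 1 CPM added) was 0.87 in EOM and 0.88 in TA, beside 0.06 and 0.14 for all genes. TMM scaling, which trims the genes that differ most, gave log2 factors of -0.36 in EOM and -0.28 in TA, raised every ratio by that much, and gave members' medians of 1.23 and 1.16 beside 0.44 and 0.44. Together, the 19 genes of glycolytic enzymes and lactate dehydrogenases took 0.277% of UMIs in quiescent EOM, 0.266% in quiescent TA, and 1.11% and 1.08% after activation.

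Both glucose transporters were lower in activated cells. Slc2a1 (GLUT1), the broadly expressed one, was at 67.8 CPM in quiescent EOM, 68.3 in quiescent TA, 38.4 in activated EOM and 29.6 in activated TA. Its level after culture was thus 0.566 times the quiescent one in EOM (0.531 to 0.603) and 0.433 times in TA (0.404 to 0.465); in TA the drop was less than 2-fold with TMM (0.528) or median-of-ratios factors (0.511) and with at most 5% mitochondrial UMIs (0.532, 0.286 to 1.12). Slc2a3 (GLUT3), a transporter of high affinity, was at 10.7, 16.3, 2.08 and 1.81 CPM, that is 5.16-fold lower in activated EOM (4.25 to 6.25) and 9.05-fold lower in activated TA (7.46 to 11). Its share of the UMIs of both transporters went from 13.7% and 19.3% in quiescent EOM and TA to 5.15% and 5.75% in activated cells.

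In upper glycolysis, without Aldoa and Tpi1, 2 of 7 measured genes were at least 2-fold higher in activated cells of either muscle, Gpi1 and Pfkl, and 1 was lower, Hk2. Hk2 binds to mitochondria and phosphorylates glucose in muscle. It lies at chr6:82725025-82774454 on the minus strand (GENCODE vM21, GRCm38). Its level was 65.1 CPM in quiescent EOM, 164 in quiescent TA, 11.4 in activated EOM and 6.56 in activated TA. It was 5.71-fold lower in activated than quiescent EOM (5.28 to 6.18) and 24.9-fold lower in TA (22.9 to 27.2). Quiescent EOM cells with at most 5% mitochondrial UMIs (263 cells) had less Hk2, 33.2 CPM, and with that filter in both libraries the drop in EOM was under 2-fold (0.510 times). The other hexokinase, Hk1, was at 25.7, 25.7, 28.7 and 35.7 CPM, so that Hk2 gave 71.7% (exact Clopper-Pearson interval 69.4 to 73.9) and 86.4% (85.1 to 87.6) of the pair's UMIs in quiescent EOM and TA, but 28.4% (27.2 to 29.7) and 15.5% (14.4 to 16.6) in activated cells.

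Gpi1, which turns glucose 6-phosphate into fructose 6-phosphate, was at 95, 100, 323 and 273 CPM in the order of the groups, 3.40-fold (3.24 to 3.57) and 2.72-fold higher (2.58 to 2.87) in activated EOM and TA. Phosphofructokinase commits sugar to glycolysis, and the leading one of its 3 genes was not the same before and after culture. The liver form Pfkl was at 22.7, 19.4, 96.2 and 74.8 CPM, a ratio of 4.24 (3.84 to 4.70) in EOM and 3.85 (3.43 to 4.34) in TA, and the platelet form Pfkp at 79.0, 73.5, 56.8 and 50.3 CPM. Pfkp gave 74.2% and 75.7% of the family's UMIs in quiescent cells, Pfkl 60.5% and 57.0% in activated ones. The muscle form Pfkm was low throughout, 4.18 to 6.14 CPM, or 3.86% to 4.59% of the family. Pfkfb3, which makes the activator of phosphofructokinase and is a known HIF target, lay between 3.56 and 6.74 CPM and was not counted as 2-fold apart in any comparison.

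**Figure D2:**
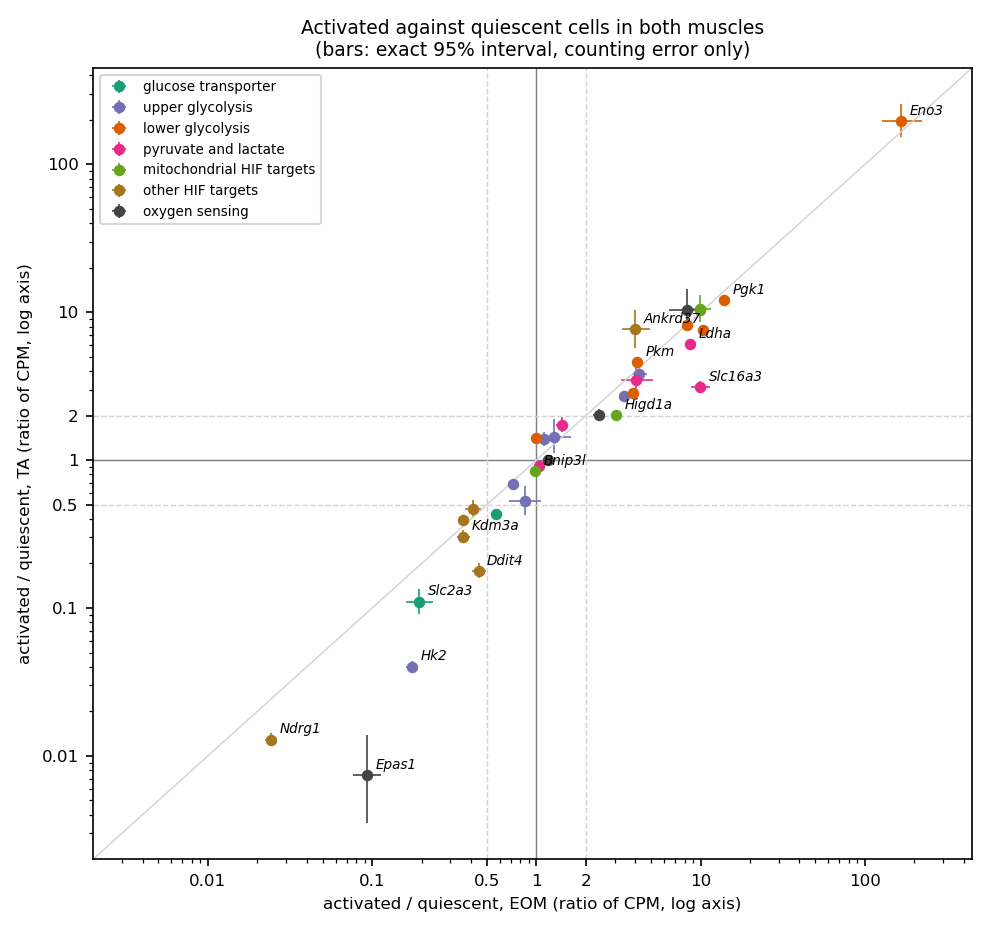
Ratio of CPM between activated and quiescent cells in EOM (x axis) and TA (y axis), both log axes, for 35 members coloured by role; bars are exact 95% intervals from counting error, the diagonal marks equal ratios and dashed lines mark 2-fold. Eno3 lies at 166 and 196 at the top, Ndrg1 at 0.0243 and 0.0129 and Epas1 at 0.0933 and 0.00742 at the bottom, and Pgam2, without a UMI in quiescent TA, is not drawn.

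Lower glycolysis, with Aldoa and Tpi1 counted in it, showed the clearest shift. At least 2-fold higher in activated cells of both muscles were 8 of 9 genes, with median log2 ratios of 3.29 in EOM and 3.01 in TA. The exception was Gapdh, the glyceraldehyde phosphate dehydrogenase, at 1077 CPM in quiescent EOM, 713 in quiescent TA, 1075 in activated EOM and 999.98 in activated TA. Its activated to quiescent ratio was 0.998 in EOM (0.983 to 1.01; 1.28 with TMM factors) and 1.4 in TA (1.37 to 1.43). The steps on both sides of it moved otherwise. Aldoa, the muscle aldolase, was at 377, 457, 1461 and 1301 CPM, 3.88-fold (3.78 to 3.97) and 2.85-fold (2.78 to 2.92) higher. Tpi1, the triose phosphate isomerase, was at 87.6, 70.8, 725 and 577 CPM, 8.27-fold (7.86 to 8.71) and 8.15-fold (7.68 to 8.67) higher in activated EOM and TA. Pgk1, at chrX:106187100-106203699 on the plus strand, was at 103, 101, 1437 and 1227 CPM, which is 14.0-fold (13.3 to 14.6) and 12.1-fold (11.5 to 12.8) higher. In counted UMIs, Gapdh was thus far above Pgk1 in quiescent cells of either muscle and below it in activated cells of both.

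The last steps included 2 genes of muscle fibres that were nearly absent from quiescent cells. Eno3, the enolase of muscle fibres, had 53 and 61 UMIs in quiescent EOM and TA (3.03 and 3.99 CPM) and stood at 503 and 783 CPM once activated, ratios of 166 (127 to 222) and 196 (153 to 257). Pgam2, the phosphoglycerate mutase of muscle, had 2 UMIs in quiescent EOM, none in quiescent TA, and 60.2 and 63.6 CPM in activated cells. Against the 2 UMIs the ratio in EOM was 527 (146 to 4353), and against a floor of 3 counts over quiescent TA Pgam2 was at least 324-fold higher in activated TA. With at most 5% mitochondrial UMIs, no quiescent cell held a Pgam2 UMI, and the floor then gave at least 6.66-fold in EOM and at least 1.21-fold in TA, while Eno3, also without a quiescent UMI in TA, was at least 44.8-fold higher there. Both are genes of differentiated muscle, and the 16 markers of differentiating muscle, summed, went from 380 and 663 CPM in quiescent to 8183 and 12196 CPM in activated EOM and TA. Levels of both genes by Myog state within activated cells are given further on. The part of differentiation in their rise from quiescent cells was not tested.

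The widely expressed forms were higher too. Eno1 was at 46.6, 46.4, 465 and 482 CPM (9.98-fold, 9.32 to 10.7, and 10.4-fold, 9.65 to 11.2, higher in activated EOM and TA) and Pgam1 at 96.6, 124, 1004 and 950 CPM (10.4-fold, 9.90 to 10.9, and 7.65-fold, 7.31 to 8.01). Pkm, pyruvate kinase, the final step, was at 417, 414, 1719 and 1902 CPM, 4.12-fold (4.03 to 4.22) and 4.6-fold (4.48 to 4.71) higher. Eno1 still gave 92.0% and 90.4% of enolase UMIs in quiescent EOM and TA but 48.0% and 38.1% in activated cells, where Eno3 gave 52.0% and 61.9%. Among annotated transcripts, 3 members share a near-identical 3' end (at least 90 of the last 300 bases at 97% identity) with another gene, so their counts are less certain: Gapdh with 4 genes, Eno1 with Eno1b and Ldhb with 1 pseudogene. Eno1b had at most 5.54 CPM in any library, and the 2 Gapdh copies in the files, Gm10358 and Gm3839, at most 0.514 CPM. These values do not show how many reads could not be assigned between a member and its copy, which was not tested.

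Of 5 genes of pyruvate and lactate, 3 were at least 2-fold higher in activated cells of both muscles. Ldha, whose enzyme favours lactate, was the most abundant member in activated cells, at 2074 CPM in EOM and 1977 in TA against 240 and 324 in quiescent ones, 8.66-fold (8.40 to 8.93) and 6.11-fold (5.94 to 6.29) higher. Ldhb, of the heart type, was at 32.8, 22.8, 47.1 and 39.6 CPM, so its share of lactate dehydrogenase UMIs went from 12% and 6.57% to 2.22% and 1.96%. The lactate exporter Slc16a3 (MCT4) was at 12.1, 28.8, 121 and 89.8 CPM, 9.98-fold (8.71 to 11.5) higher in activated EOM and 3.12-fold (2.84 to 3.44) in activated TA, the latter 1.56-fold (0.870 to 3.14) with at most 5% mitochondrial UMIs. Slc16a1 (MCT1), which carries lactate both ways, hardly differed, 44.5 to 56.3 CPM in all libraries, so Slc16a3 went from 21.4% and 33.8% of the pair's UMIs to 72.3% and 63.7%. Pdk1, a kinase that inhibits pyruvate dehydrogenase and a HIF target, was at 4.74, 2.62, 19.2 and 9.11 CPM, 4.05-fold (3.25 to 5.10) and 3.48-fold (2.54 to 4.91) higher. With at most 5% mitochondrial UMIs, which left 47 quiescent TA cells, no quiescent Pdk1 UMI was seen in TA, and the floor of 3 counts (15.8 CPM) lay above the activated level (10.3 CPM), so no direction can be read there.

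Of 3 HIF targets that act on mitochondria, Bnip3 and Higd1a were at least 2-fold higher in activated cells of both muscles and Bnip3l was not. Bnip3 was at 11 CPM in quiescent EOM, 6.47 in quiescent TA, 109 in activated EOM and 68.4 in activated TA, 9.92-fold (8.60 to 11.5) and 10.6-fold (8.66 to 13.0) higher in activated cells. Its relative Bnip3l (NIX) was at 110, 91.3, 109 and 77.3 CPM, ratios of 0.984 (0.938 to 1.03) in EOM and 0.847 (0.8 to 0.897) in TA (1.27 and 1.03 with TMM factors), so that Bnip3 gave 9.09% and 6.62% of the pair's UMIs in quiescent and 50.2% and 46.9% in activated EOM and TA. Higd1a, a respiratory chain protein induced by hypoxia, was at 118, 140, 360 and 280 CPM, 3.05-fold (2.92 to 3.19) and 2.01-fold (1.92 to 2.10) higher; without doublet removal the TA value was just under 2-fold (1.9986), and with at most 5% mitochondrial UMIs it was 3.12 (1.95 to 5.36).

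Of 6 other HIF targets, grouped apart from Pdk1 and the Egln genes, 5 were at least 2-fold lower in activated cells of both muscles. Among all genes, 25.3% were in EOM and 24.8% in TA. Pdk1, Egln1 and Egln3, also counted as HIF targets here, were higher. Ndrg1, a stress-responsive gene strongly induced by hypoxia in many cells, was the member that differed most downward with ample counts. It lies at chr15:66929318-66969640, minus strand, and was at 222 CPM in quiescent EOM, 319 in quiescent TA, 5.40 in activated EOM and 4.10 in activated TA. Both quiescent libraries were thus far above both activated ones, 41.2-fold (37.9 to 44.8) in EOM and 77.8-fold (70.4 to 86.2) in TA. Vegfa, the vessel growth factor, was at 88.5, 93.1, 31.7 and 36.4 CPM, 2.79-fold (2.63 to 2.96) and 2.55-fold (2.40 to 2.72) lower in activated cells, with a ratio of 1.03 (0.518 to 2.40) in TA when only cells of at most 5% mitochondrial UMIs were used, 8 quiescent UMIs in all. Kdm3a, a histone demethylase, was at 35.1, 38.1, 12.6 and 11.6 CPM, 2.78-fold (2.53 to 3.06) and 3.29-fold (2.97 to 3.63) lower, the latter a ratio of 0.176 (0.0922 to 0.378) with at most 5% mitochondrial UMIs.

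Ddit4 (REDD1), an inhibitor of mTOR signalling that glucocorticoids and stress also induce, was at 31.8, 34.8, 14.2 and 6.21 CPM, 2.24-fold (2.03 to 2.47) lower in EOM and 5.60-fold (4.99 to 6.30) in TA. Mxi1, an antagonist of Myc, was at 23.4, 19.2, 9.68 and 9.04 CPM, 2.42-fold (2.16 to 2.71) and 2.13-fold (1.86 to 2.43) lower. With TMM and median-of-ratios factors the drop was under 2-fold for Ddit4 in EOM (0.574 and 0.568 times) and for Mxi1 in EOM (0.531 and 0.525) and TA (0.572 and 0.554), while with at most 5% mitochondrial UMIs Mxi1 was at 0.515 (0.344 to 0.797) times in EOM and 0.291 (0.129 to 0.811) times in TA. Of these 6 HIF targets only Ankrd37, an ankyrin repeat gene, was higher, at 6.23, 3.20, 25 and 24.5 CPM. Its ratios were 4.01 (3.31 to 4.90) and 7.66 (5.78 to 10.4), the latter 3.79 (0.674 to 150) with at most 5% mitochondrial UMIs, from 1 quiescent UMI. Beside these values stand 10 early response genes that rise when tissue is dissociated (Fos, Jun and the like): summed, they were at 12235, 8616, 494 and 387 CPM. Their part in the quiescent levels was not tested.

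Oxygen sensing itself showed a split of its own. Hif1a, the HIF subunit made in most cells, was at 49.8, 69.9, 58.4 and 70.4 CPM and did not differ 2-fold anywhere, whereas Epas1 (HIF2A) was at 14.7, 13.1, 1.38 and 0.0976 CPM, the last from 10 UMIs. Epas1 was 10.7-fold (8.80 to 13.1) lower in activated EOM and 135-fold (71.7 to 285) in activated TA. Epas1 is abundant in endothelium, and the 14 endothelial markers, summed, were at 47.6, 28.8, 11.5 and 9.97 CPM with 2, 2, 1 and 0 of them at 5 CPM or more. The 2 in quiescent EOM and TA were Tek (40.2 and 14.9 CPM) and Pecam1 (5.14 and 5.04 CPM). Cdh5, Kdr and Flt1 were at 0.392 CPM or less in every library. The part of endothelial cells in the Epas1 values was not tested. The prolyl hydroxylases Egln1 (PHD2, the main brake on HIF1A) and Egln3 (PHD3, itself a HIF target) were higher in activated cells. Egln1 was at 35.3, 31.3, 84.7 and 63.5 CPM, 2.40-fold (2.21 to 2.60) and 2.03-fold (1.85 to 2.23), and Egln3 at 3.54, 2.81, 29.3 and 29.1 CPM, 8.28-fold (6.44 to 10.8) and 10.3-fold (7.66 to 14.3). In TA, cells with at most 5% mitochondrial UMIs gave a ratio of 4.78 (1.63 to 23.2, from 3 quiescent UMIs) for Egln1, and Egln3 had no UMI in the 47 quiescent cells, so that against a floor of 3 counts it was at least 2.00-fold higher (1.9966, just short of the limit). The 12 members counted as HIF targets here (the 9 above with Pdk1, Egln1 and Egln3) took 0.0690%, 0.0781%, 0.0810% and 0.0620% of UMIs in the order of the groups. Over genes that moved apart, this share was higher in activated than quiescent EOM (0.0805% to 0.0815% against 0.0678% to 0.0703%). In TA it was lower in activated cells (0.0615% to 0.0624% against 0.0767% to 0.0796%).

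Other genes of the same pathways were counted in the same way, 42 for glucose and pyruvate metabolism and 58 for the hypoxia response in the files. Among all genes measured, 25.3% were at least 2-fold higher and 25.3% lower in activated EOM, and 29.1% and 24.8% in TA. Of the first list, 8 of 24 measured stood 2-fold or more above the quiescent level and 5 below it in EOM, and 9 and 7 of 24 in TA. The highest ratios in EOM at 20 CPM or more were those of Me1 (malic enzyme), 46.0 against 3.26 CPM, and Pgm2 (a phosphoglucomutase), 32.3 against 2.63 CPM. The lowest were Pdk4, which inhibits pyruvate dehydrogenase, at 9.60 against 111 CPM, and Pdp1, which reactivates it, at 6.10 against 34.9 CPM. Of the hypoxia list, 8 of 48 were higher and 19 lower in EOM, and 8 and 20 of 44 in TA, with median log2 ratios of -0.26 and -0.77. This list thus leaned to lower levels in activated cells. The members as a whole did not, but they include the genes of glycolysis, so the sets are not alike. Among members, the 6 other HIF targets leaned the same way, 5 at least 2-fold lower and 1 higher in both muscles. The mitochondrial HIF targets, 2 of 3 higher, and oxygen sensing, 2 of 4 higher and 1 lower, did not. The highest of the hypoxia list were Mif, a cytokine, at 1906 against 166 CPM, and Gys1, the glycogen synthase of muscle, at 22.8 against 3.43 CPM. Its lowest were Trf (transferrin) at 0.179 against 40.1 CPM and Loxl2, which crosslinks collagen, at 1.17 against 59.7 CPM.

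Few of these genes were 2-fold apart between EOM and TA cells. In quiescent cells none of 31 measured members was at least 2-fold higher in EOM, where 4.83% of all 9228 genes were, and 2 were lower, Hk2 and Slc16a3, where 2.65% of genes were. Hk2 at 65.1 against 164 CPM was 2.51-fold lower in quiescent EOM (2.34 to 2.70), and Slc16a3 at 12.1 against 28.8 CPM was 2.37-fold lower (2.01 to 2.81). The median log2 ratio of members was -0.01, beside 0.10 for all genes. The next largest measured differences were Ankrd37 (1.94, 1.38 to 2.78), Bnip3 (1.70, 1.33 to 2.19) and Gapdh (1.51, 1.48 to 1.55), higher in EOM, and Slc2a3 (0.657, 0.541 to 0.797), lower in EOM. Quiescent TA had the larger share of barcodes lost to mitochondrial UMIs, and whether that bears on Hk2 or Slc16a3 was not tested. Their quiescent TA levels were 205 and 57.8 CPM in the 47 cells with at most 5% mitochondrial UMIs, 163 and 28.1 CPM in those with 5 to 7.5%, and 163 and 28.6 CPM in those with 7.5 to 10%. In quiescent EOM, Hk2 was at 33.2, 62.4 and 75.9 CPM and Slc16a3 at 16.2, 12.3 and 11.1 CPM in the same classes. Among cells of at most 5% the EOM to TA ratios were 0.162 for Hk2 and 0.280 for Slc16a3, further from 1 than over all cells.

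**Figure D3:**
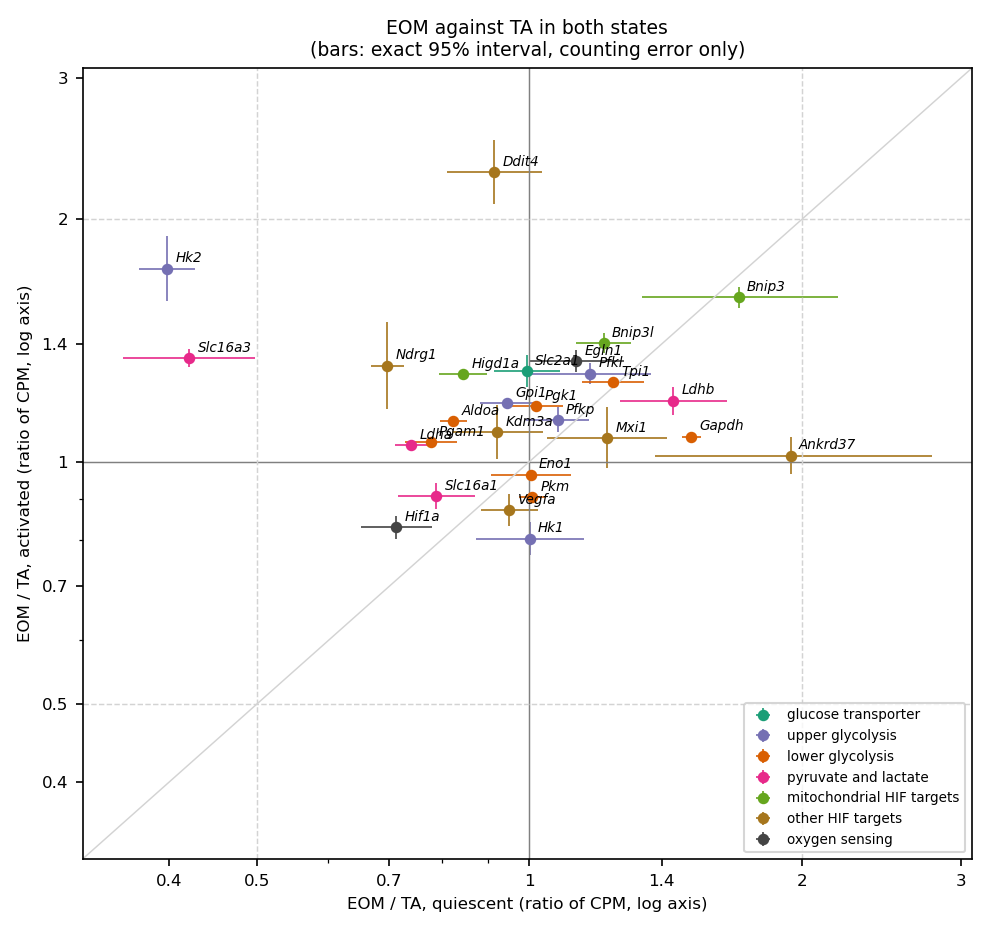
Ratio of CPM between EOM and TA in quiescent (x axis) and activated cells (y axis), log axes, for the 28 members measured in both comparisons; bars are exact 95% intervals from counting error and dashed lines mark 2-fold. Hk2 and Slc16a3 lie left at 0.398 and 0.421 among quiescent cells and above 1 among activated ones, and Ddit4 lies at the top at 2.29.

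In activated cells, 2 of 33 members were at least 2-fold higher in EOM, Pdk1 and Ddit4, where 2.99% of 8890 genes were, and none was lower, where 1.36% of genes were. Smaller differences leaned to EOM: 25 of the 33 were higher there, 21 with a counting interval above 1, and 8 were lower, all 8 with an interval below 1. Among all 8890 genes, 4327 were higher in EOM, 3175 had an interval above 1 and 3296 had one below 1. The median log2 ratio of members was 0.17, beside -0.01 for all genes. Pdk1 was at 19.2 against 9.11 CPM (2.11-fold, 1.95 to 2.28) and Ddit4 at 14.2 against 6.21 CPM (2.29-fold, 2.09 to 2.51). Both are below 20 CPM, and with a minimum of 20 CPM none was left. All 3 HIF targets of mitochondria were higher in EOM, Bnip3 by 1.60-fold (1.55 to 1.65), Bnip3l by 1.4-fold (1.37 to 1.44) and Higd1a by 1.28-fold (1.26 to 1.30). Eno3 was the member most in favour of TA, 503 against 783 CPM (0.642 times, 0.636 to 0.649).

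The muscles also differed in how many activated cells had begun to differentiate, so the ratios were taken again within states of Myog. Each activated cell was thinned at random to 5000 UMIs and called Myog-free with none, Myog-low with 1 to 2 and Myog-high with 3 or more Myog UMIs. The Myog-free, low and high states held 2206, 865 and 2343 EOM cells and 1152, 780 and 2222 TA cells, so 43.3% of EOM and 53.5% of TA cells were Myog-high; 152 and 130 cells under 5000 UMIs were left out. Pdk1 was higher in EOM in each state, by 2.36-fold among Myog-free, 2.10-fold among Myog-low and 1.87-fold among Myog-high cells. Ddit4 was higher by 2.34, 2.65 and 1.46-fold and Bnip3 by 2.01, 1.81 and 1.63-fold. Eno3 was lower in EOM in each, at 0.557, 0.576 and 0.776 times the TA level, and Pgam2 was at 0.443 and 0.503 times among Myog-free and Myog-low cells but 1.24 times among Myog-high ones. Other members turned the opposite way, from above to below the TA level. Egln3, at 1.01 times over all activated cells, was at 1.24 (1.15 to 1.34) among Myog-free and 0.588 (0.536 to 0.644) among Myog-high cells. Ankrd37 was at 1.43 and 0.819 times in these states, and Ldhb at 1.51 and 0.836 times.

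The direction of several muscle differences was not the same in quiescent and activated cells. Hk2 in EOM was 0.398 times its TA level when quiescent and 1.74 times (1.58 to 1.91) when activated, and Slc16a3 was 0.421 and 1.35 times (1.31 to 1.38). Ndrg1, with 0.697 (0.668 to 0.727) and 1.32 (1.16 to 1.49), showed the same turn at a smaller size. Whether these ratios differ between states was not tested, since each rests on 1 library.

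Myogenin marks exit from the stem cell pool, and along it the summed share of glycolytic transcripts hardly moved, although single genes did. Glycolytic enzymes and lactate dehydrogenases took 1.10% of UMIs in Myog-free and 1.13% in Myog-high EOM cells, and 1.07% and 1.09% in TA. At least 2-fold higher in Myog-high EOM cells was 1 of 34 members, Pgam2, where 7.64% of 9085 genes were, and 4 were lower, Hk2, Ndrg1, Ddit4 and Egln3, where 10.4% of genes were. In TA, 2 of 33 were higher, Pgam2 and Bnip3, with 5.43% of 8919 genes, and 2 lower, Hk2 and Ndrg1, with 3.99% of genes. With TMM factors 3 members were higher in EOM, as Bnip3 and Eno3 also reached 2-fold, and 4 lower. Members' median log2 ratios were -0.18 in EOM and 0.01 in TA, beside -0.14 and -0.09 for all genes.

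**Figure D4:**
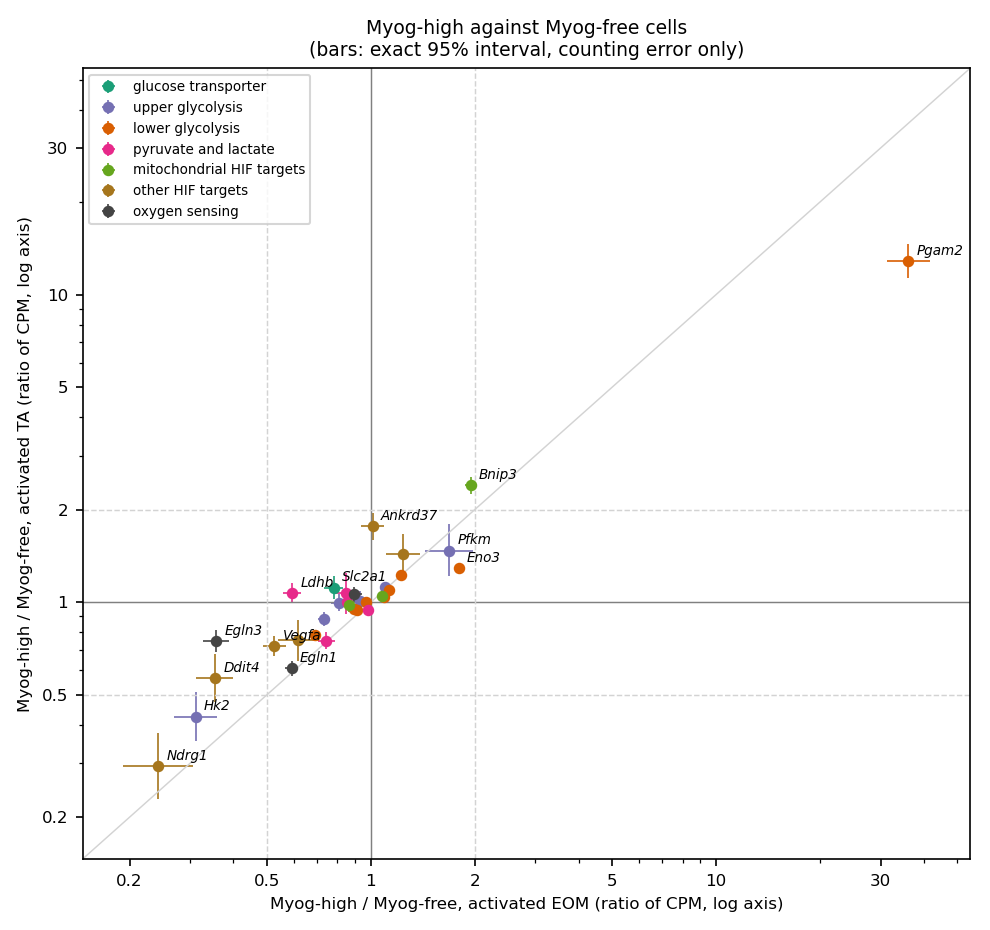
Ratio of CPM between Myog-high and Myog-free cells in activated EOM (x axis) and activated TA (y axis), log axes, for 33 members coloured by role; bars are exact 95% intervals from counting error and dashed lines mark 2-fold. Pgam2 stands alone at 36.1 and 12.9, Bnip3 follows at 1.95 and 2.40, and Hk2 and Ndrg1 lie below 0.5 in both muscles.

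Pgam2 was at 3.90 CPM in Myog-free, 7.34 in Myog-low and 141 in Myog-high EOM cells, and at 8.79, 14.6 and 113 CPM in TA. Myog-high cells thus had 36.1-fold (31.4 to 41.7) more in EOM and 12.9-fold (11.4 to 14.6) more in TA (19.6-fold and 7.05-fold with at most 5% mitochondrial UMIs), and the gene gave 15% and 11.8% of phosphoglycerate mutase UMIs there. By mitochondrial share (up to 5%, 5 to 7.5% and 7.5 to 10%), Pgam2 stood at 17.0, 49.1 and 173 CPM over all activated EOM cells and at 19.2, 55.7 and 160 CPM in TA. Eno3, the other muscle isoform, had a different course: it was already at 376 CPM in Myog-free EOM and 676 CPM in Myog-free TA cells, against 3.03 and 3.99 CPM in quiescent ones, and at 675 and 870 CPM in Myog-high cells (1.80-fold, 1.76 to 1.83, and 1.29-fold, 1.27 to 1.31). Myog-free cells also held UMIs of late muscle genes, Acta1 at 94.5 CPM in EOM and 1014 in TA, and of Myog itself at 48.7 and 69.2 CPM; the part of free RNA or of cells missed at 5000 UMIs in their Eno3 and Pgam2 was not tested. Pgk1, Ldha, Pkm and Eno1 were all within 0.896 to 1.0 times their Myog-free level in Myog-high cells of both muscles, and with TMM factors these 4 lay at 1.0 to 1.10. Pgam1, the other phosphoglycerate mutase, was lower in Myog-high cells, at 0.688 (0.680 to 0.697) times its Myog-free level in EOM and 0.785 (0.774 to 0.797) in TA. Aldoa was higher, 1.22-fold (1.21 to 1.24) and 1.23-fold (1.21 to 1.24), as was Pfkm, 1.68-fold (1.43 to 1.98) and 1.47-fold (1.22 to 1.79).

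Bnip3 was at 79.1, 76.6 and 154 CPM in Myog-free, low and high EOM cells and at 39.4, 42.3 and 94.5 CPM in TA, 1.95-fold (1.87 to 2.02) and 2.40-fold (2.25 to 2.56) higher in Myog-high than Myog-free cells, the latter 1.63-fold with at most 5% mitochondrial UMIs. The difference therefore lay between Myog-low and Myog-high cells in both muscles. Bnip3 gave 40.7% and 33.4% of the Bnip3 and Bnip3l UMIs in Myog-free EOM and TA cells and 60.7% and 55.2% in Myog-high ones. Ankrd37 was 1.76-fold (1.60 to 1.95) higher in Myog-high TA cells but level in EOM (1.01, 0.935 to 1.09).

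Of the genes that were lower on activation, Ndrg1, Hk2, Ddit4, Vegfa and Mxi1 were lower again in Myog-high cells, whereas Kdm3a was 1.24-fold (1.11 to 1.39) and 1.44-fold (1.25 to 1.66) higher. Ndrg1 was at 7.68 CPM in Myog-free and 1.86 in Myog-high EOM cells, and at 6.53 and 1.92 in TA, 4.12-fold (3.28 to 5.23) and 3.40-fold (2.66 to 4.38) lower. Among cells with at most 5% mitochondrial UMIs, the Ndrg1 ratio was 0.369 in EOM and 0.896 in TA, the latter no longer 2-fold. Hk2 was at 16.7 and 5.20 CPM in EOM and 9.61 and 4.08 in TA, 3.22-fold (2.80 to 3.71) and 2.35-fold (1.96 to 2.82) lower; the TA drop was under 2-fold with states called at 2000 UMIs (0.517 times) and with at most 5% mitochondrial UMIs (0.633 times). Ddit4 was 2.83-fold (2.50 to 3.20) lower in EOM and 1.76-fold (1.47 to 2.10) in TA. Vegfa, at 39.2 and 20.6 CPM in EOM and 43.1 and 31.1 in TA, was 1.90-fold (1.76 to 2.05) and 1.39-fold (1.29 to 1.49) lower.

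Egln3 and Egln1 also stood lower in Myog-high cells, although both had been higher in activated than quiescent cells. Egln3 was at 40.6 and 14.4 CPM in EOM (2.81-fold lower, 2.58 to 3.06) and 32.8 and 24.5 in TA (1.34-fold, 1.23 to 1.45), and Egln1 at 102 and 60.1 CPM in EOM (1.70-fold, 1.62 to 1.78) and 80.2 and 48.9 in TA (1.64-fold, 1.55 to 1.74). Cells with a UMI of the division genes Mki67 or Top2a at 5000 UMIs made up 83.8% of Myog-free and 50.7% of Myog-high EOM cells, and 82.4% and 53.0% in TA. Within Myog-high cells, those with such a UMI had 1.71-fold (1.46 to 2.00) more Egln3 in EOM and 1.55-fold (1.38 to 1.74) more in TA than those without, and 0.335 (0.318 to 0.353) and 0.353 (0.334 to 0.373) times the Pgam2. The 2 kinds of Myog-high cells also differed in Myog itself. It was at 2786 CPM in those with a division gene UMI and 4361 in those without in EOM, and at 2223 and 3733 CPM in TA. The part of the Myog level in these ratios was not tested. Among cells without a Mki67 or Top2a UMI, Pgam2 was 57.4-fold and 20.3-fold higher in Myog-high than Myog-free cells and Ndrg1 0.151 and 0.180 times as high. Egln3 in such cells was at 38.9 CPM in Myog-free and 10.4 in Myog-high EOM cells, and at 27.7 and 18.7 CPM in TA.

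**Figure D5:**
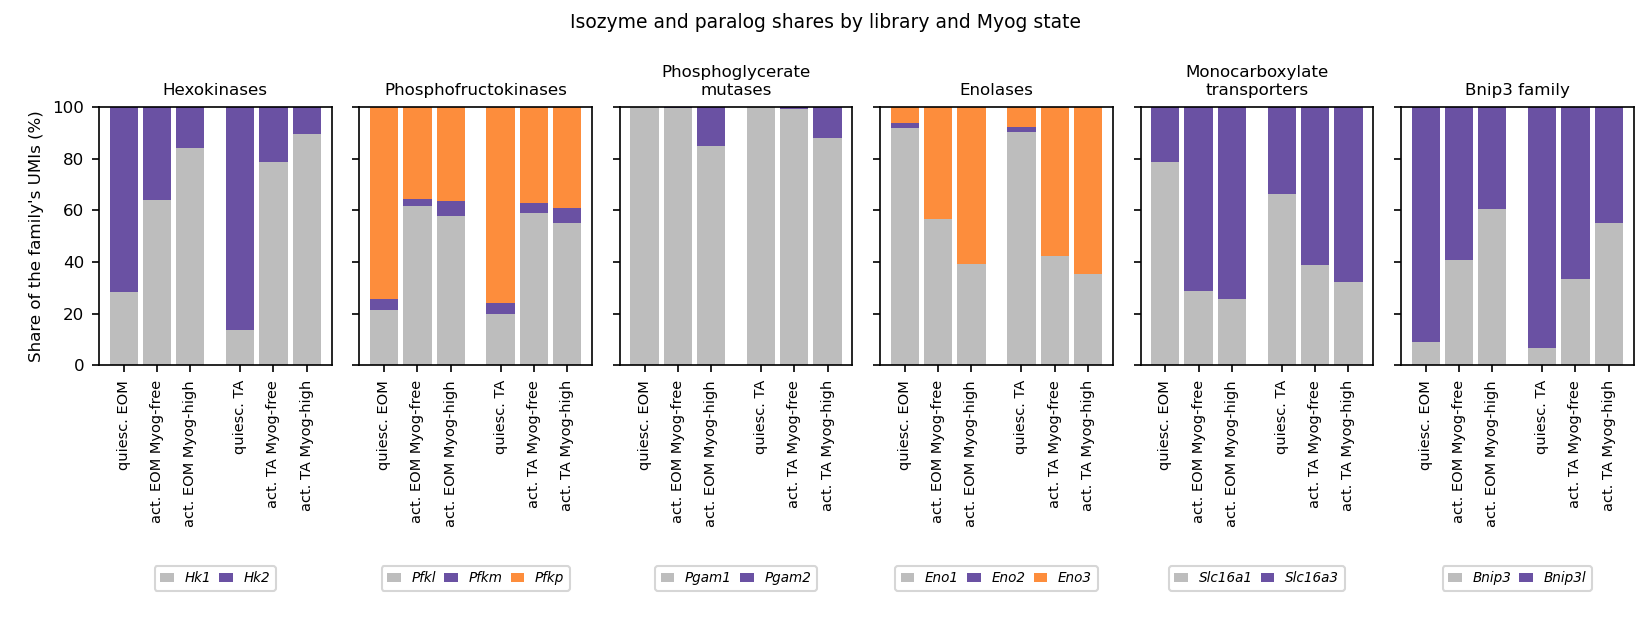
Share of a family's UMIs (percent, stacked to 100) given by each member in quiescent, Myog-free and Myog-high cells of EOM (left 3 bars of a panel) and TA (right 3 bars). Hk2, Pfkp, Eno1, Slc16a1 and Bnip3l give most of their families in quiescent cells, Pgam2 reaches 15% and 11.8% in Myog-high cells, and in Myog-free cells Eno3 already gives 43.5% and 57.5% of enolase UMIs.

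Some members varied more from cell to cell than genes of like mean, and others varied less. With cells thinned to 2000 UMIs in quiescent libraries and 5000 in activated ones, variance over mean across cells was 1.94 for Hk2 in quiescent TA, beside a median of 1.11 for the 200 genes of nearest mean, and 1.43 beside 1.05 in quiescent EOM. Ndrg1 had 1.80 beside 1.20 and 1.57 beside 1.12, and Ddit4 1.5 beside 1.06 and 1.38 beside 1.05, in quiescent TA and EOM. Other members lay at or below genes of like mean, such as Gapdh with 1.12 beside 1.41, Pkm with 1.09 beside 1.25 and Pgam1 with 0.98 beside 1.09 in quiescent TA, and Higd1a with 1.003 beside 1.08 in quiescent EOM. In all, 12 of 23 members with enough UMIs lay above the median of their like genes in quiescent EOM, 15 of 23 in quiescent TA, 21 of 31 in activated EOM and 18 of 27 in activated TA. In activated cells Pgam2 spread most, 1.98 beside 1.03 in EOM and 1.77 beside 1.04 in TA. A cell's summed UMIs of glycolytic enzymes had a median of 5 (5th to 95th percentile 2 to 10 in EOM and 1 to 10 in TA) at 2000 UMIs in quiescent cells. At 5000 UMIs it was 55 (37 to 75) in activated EOM and 53 (37 to 71) in activated TA. Across cells of a library, this sum and that of the HIF targets had Pearson correlations of -0.00 and -0.07 in quiescent EOM and TA (3514 and 2847 cells) and 0.23 and 0.11 in activated ones (5414 and 4154 cells), given as a description of cells that share a library.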

How the data were processed

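Polyadenylated RNA of sorted cells was counted by 10x Genomics droplets in 4 libraries. The authors deposited raw counts of UMIs for each gene in each barcode, which the submitters' processing notes attribute to Cell Ranger 3.0.2 and build mm10. Barcodes with at least 500 genes and at most 10% mitochondrial UMIs were kept; doublets scored by Scrublet in scanpy 1.11.5 were removed by rank (0.8% per 1000 barcodes), since its automatic threshold called 1, 0, 0 and 0; and 1 endothelial-like cluster of 14 cells in quiescent TA was left out. Totals of kept UMIs were 17497225, 15292841, 122868688 and 102471329, and 3 counts equal 0.171, 0.196, 0.0244 and 0.0293 CPM. Counts were summed per library or Myog state; a gene was counted as apart at 2-fold or more with 5 CPM or more in either group. TMM followed the method of edgeR. The call rule, intervals and thinning were checked on simulated counts. Named were members at least 2-fold apart in a comparison or most abundant in their step, and from each pathway list the 2 highest and 2 lowest ratios in EOM at 20 CPM or more, a reading of the rule (largest ratios, at most 4) made after the values were seen. Members and lists were chosen with earlier results of these data known. Alternatives were other scalings, expression minimums, fold limits, cell filters and Myog states. Aldoa is listed under 2 gene IDs, of which ENSMUSG00000030695 was used.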

Additional observations from a re-analysis of the deposited data

Results flagged for a closer look

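Ratios of 9 members pointed in opposite directions in a pair of matched comparisons, with both counting intervals away from 1; each rests on 1 library per group, and the difference was not tested. Between EOM and TA, the quiescent and activated ratios were 0.398 and 1.74 for Hk2, 0.421 and 1.35 for Slc16a3, 0.697 and 1.32 for Ndrg1, 0.740 and 1.05 for Ldha, 0.778 and 1.06 for Pgam1, 0.825 and 1.12 for Aldoa, and 0.845 and 1.28 for Higd1a. Between Myog-high and Myog-free cells, the EOM and TA ratios were 0.780 and 1.12 for Slc2a1 and 0.897 and 1.06 for Hif1a, whose EOM ratio was 1.0 with TMM factors.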

How the results depend on the processing

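No paired analysis was possible because each group had 1 library. The counts of members 2-fold apart between activated and quiescent cells stayed within 1.5 times under every alternative tried. The smaller counts moved more. Higher in quiescent EOM than TA were 3 members at 1.5-fold and 5 with at most 5% mitochondrial UMIs, and lower were 6 with that filter, which leaves 47 quiescent TA cells. Higher in activated EOM than TA were 0 members with a 20 CPM minimum, 4 without a minimum and 4 at 1.5-fold, and lower was 1 at 1.5-fold. Higher in Myog-high EOM cells were 3 with TMM, 2 with median-of-ratios factors, 4 at 1.5-fold and 2 without Mki67 or Top2a cells; lower were 2 at 20 CPM and 8 at 1.5-fold. Higher in Myog-high TA cells were 1 at 5% mitochondrial UMIs and 4 without Mki67 or Top2a cells; lower were 0 at 20 CPM, 4 at 1.5-fold, 1 at 5% mitochondrial UMIs and 1 with states at 2000 UMIs. With at most 5% mitochondrial UMIs the log2 ratio of activated to quiescent TA became 0.042 for Vegfa (8 quiescent UMIs) and -0.61 for Pdk1, the latter only because it had no quiescent UMI and was set against the floor of 3 counts, and 2-fold calls ended for Slc16a3 (1.56 times), Egln3 (at least 2.00, from no UMI), Slc2a1 (0.532) and Pgam2 (at least 1.21) in TA, for Hk2 (0.510) and Mxi1 (0.515) in EOM, and with Myog in TA for Bnip3 (1.63), Hk2 (0.633) and Ndrg1 (0.896) (the setting leaves few cells; the cause was not tested). With at most 20% the bound for Pgam2 in TA became a ratio of 1212. Depth limits Pgam2, Eno3, Egln3 and Pdk1 in quiescent cells, where each had at most 83 UMIs.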
